A study of Mus musculus with 24 samples.

Results

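Of the 37310 genes in the deposited expression tables, 9 were examined here for how a cell takes up, exports, stores and senses iron. They are Tfrc, Slc11a2 and Steap4 on the uptake side, Slc40a1 and Cp on the export side, the ferritin subunits Fth1 and Ftl1, and the iron regulatory proteins Ireb2 and Aco1. The genes were chosen by name because EGCG (epigallocatechin gallate, a green tea catechin) binds iron. Earlier results of these data were known at that time. The question put to the data was whether cells given EGCG show the mRNA pattern of iron shortage. Cells of the stromal vascular fraction, the mixed part of fat tissue that contains adipocyte precursors, came from the inguinal white fat (WAT) or the interscapular brown fat (BAT) of C57BL/6 mice aged 6 weeks. The cultures were induced to become adipocytes and received EGCG or the solvent DMSO (the control), and total RNA was sequenced on day 4 or day 8 of differentiation. Induction took place with insulin, dexamethasone and 3-isobutyl-methylxanthine up to day 4, and with insulin and T3 from then to day 8, in the EGCG and control cultures alike. This gave 8 groups of 3 libraries: WAT and BAT, day 4 and day 8, control and EGCG, with no genetic change in any group. The labels give no dose of EGCG, no time of its addition and no statement that replicates came from separate cultures or mice, so p-values here measure the spread between libraries, which may be technical.

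Cells bring in iron bound to transferrin through the transferrin receptor (Tfrc). Reductases such as Steap4 reduce the iron, Slc11a2 (DMT1) carries it across the membrane, ferritin cages of heavy (Fth1) and light (Ftl1) subunits store it, and ferroportin (Slc40a1) exports it with the help of copper ferroxidases such as ceruloplasmin (Cp). When iron is scarce, the regulatory proteins encoded by Aco1 and Ireb2 bind hairpins called iron-responsive elements, which protects Tfrc mRNA from decay and blocks translation of the ferritin and ferroportin mRNAs. The Tfrc arm can be seen in mRNA levels, while the block of translation is not measured by mRNA sequencing, and ferritin genes are also known to be transcribed in response to oxidative stress.

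The hairpins are shown because this regulation acts through them, but the search below does not set which members it can reach. UTRs (untranslated regions) of coding transcripts in the GENCODE vM1 annotation of mouse build NCBIM37 (mm9) were searched on the transcript strand for the loop CAGTGN enclosed by 5 paired bases on each side, G-U pairs allowed, with an unpaired C that lies 5 bases before the loop. The 30 bases around each match are written 5′ to 3′ with the loop of 6 bases in capitals, and T stands for U. Fth1 has 1 match in its 5′ UTR at chr19:10057221-10057250 (plus strand), Ftl1 has 1 in its 5′ UTR at chr7:52715149-52715178 (minus strand), and Slc40a1 has 1 in its 5′ UTR at chr1:45982310-45982339 (minus strand). Tfrc has 4 matches in its 3′ UTR, at chr16:32631304-32631333, chr16:32631683-32631712, chr16:32631748-32631777 and chr16:32631795-32631824 (plus strand).
Fth1 5′ UTR: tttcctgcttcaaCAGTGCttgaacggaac
Ftl1 5′ UTR: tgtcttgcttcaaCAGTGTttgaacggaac
Slc40a1 5′ UTR: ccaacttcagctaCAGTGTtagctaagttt
Tfrc 3′ UTR, first: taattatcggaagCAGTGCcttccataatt
Tfrc 3′ UTR, second: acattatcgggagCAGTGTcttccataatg
Tfrc 3′ UTR, next: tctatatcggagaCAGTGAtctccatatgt
Tfrc 3′ UTR, last: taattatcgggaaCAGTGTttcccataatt
Fth1 and Ftl1 share the paired bases ttcaa and ttgaa on either side of the loop. Of all genes with an annotated 5′ UTR, 33 of 19945 (0.165%) hold this pattern, and of those with an annotated 3′ UTR, 125 of 20007 (0.625%) do. No match was found in Slc11a2, Steap4, Cp, Ireb2 or Aco1, which says only that these letters are not in their annotated UTRs.

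Levels are FPKM, read counts scaled by gene length and by the total of reads on genes. The 16 libraries of replicates 1 and 2 were deposited in 1 table and held 39452696 to 52893848 reads on genes. The 8 libraries of replicate 3 were in another table, scaled separately, and 7 of them held 16392420 to 23449134 reads. The library WAT day 8 EGCG replicate 3 stood apart: 61.0% of its 41675643 reads lay on 5 genes, against 3.64% to 10.5% elsewhere, and its median-ratio scaling factor was 0.413, against 0.916 to 1.14. Its FPKM values are therefore low for nearly every gene, and they are given here both as deposited and after scaling. The tables also differ in the members themselves: leaving that group out, replicate 3 was 1.54 to 1.69 times the mean of replicates 1 and 2 for Ftl1 and 1.15 to 1.28 times for Fth1, but 0.802 to 0.870 times for Ireb2. Tests therefore used replicates 1 and 2 (n = 2 per group, 8 groups sharing 1 estimate of the spread in limma), and replicate 3 is given as a value beside them. Every member was deeply counted, with the fewest reads in any library at 135 for Slc40a1 and at 29475 for Fth1.

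EGCG was followed by broad change in these cells, so the counts of members must be read against the share of all 14095 tested genes that passed the same threshold (adjusted p under 0.05). All 9 members passed the filter on low values. In WAT on day 4, 9 of 9 members were called, 4 higher and 5 lower with EGCG, where 53.7% of all genes were called, 34.4% higher and 19.3% lower. In WAT on day 8, 8 of 9 were called, 5 higher and 3 lower, against 63.6% of all genes, 44.7% higher and 18.9% lower. In BAT on day 4, 6 of 9 were called, 2 higher and 4 lower, against 48.5%, 27.9% higher and 20.6% lower. In BAT on day 8, 7 of 9 were called, 3 higher and 4 lower, against 72.6%, 46.5% higher and 26.1% lower. The median log2 change over the members was -0.21, 0.24, -0.09 and -0.10 in this order, beside 0.09, 0.17, 0.03 and 0.17 over all genes tested. Dividing each library by its median-ratio factor brought the last 4 medians to -0.02, 0.01, 0.00 and 0.02. It also moved the percentage of calls in the higher direction from 64.1% to 44.7% in WAT on day 4, from 70.3% to 51.2% in WAT on day 8 and from 64.0% to 51.8% in BAT on day 8. With it, the members were split 3 higher to 5 lower in WAT on day 4, 2 to 3 in WAT on day 8, 2 to 4 in BAT on day 4 and 2 to 5 in BAT on day 8. Small changes of members are read against that shift below.

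**Figure D1:**
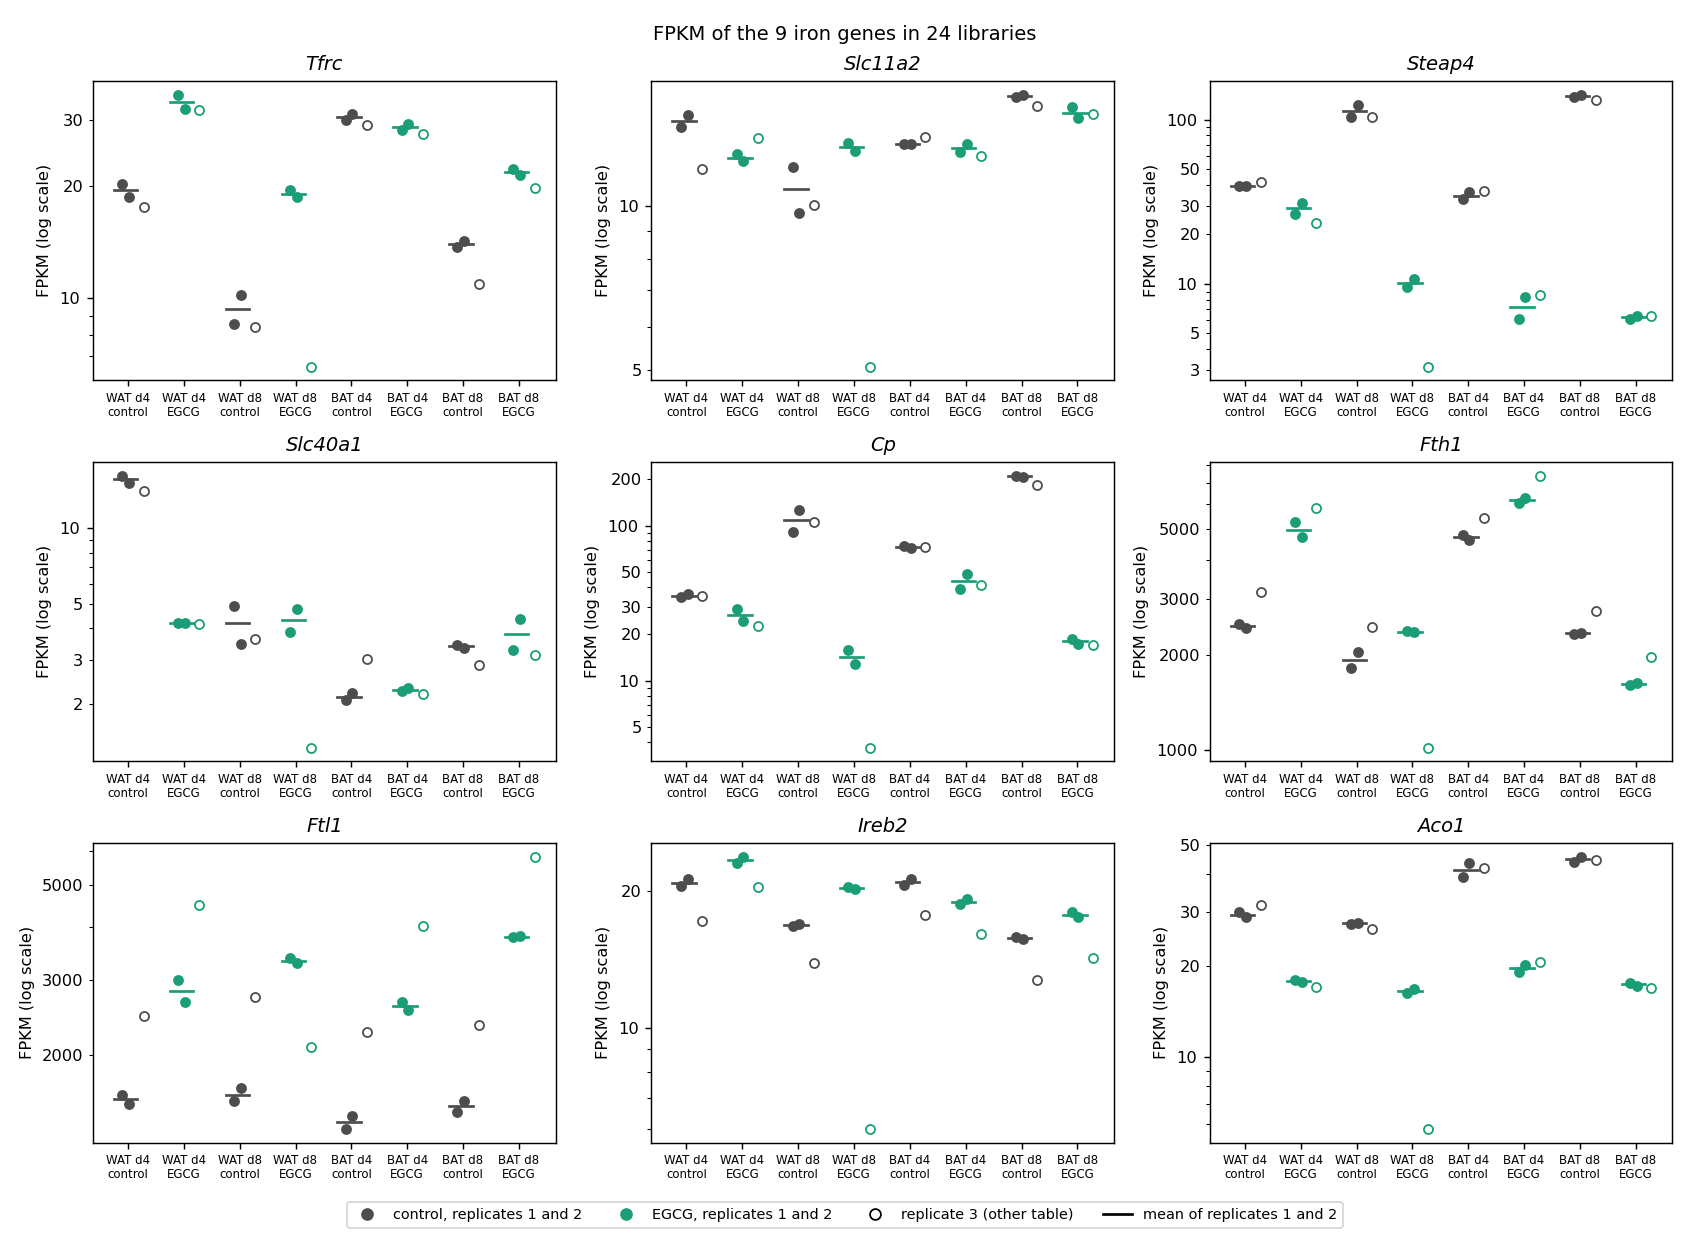
FPKM (log scale) of each member in the 24 libraries, by group. Filled points are replicates 1 and 2, lines their mean, and open points replicate 3 from the other table. Tfrc lay above control with EGCG in WAT on both days and in BAT on day 8, Aco1 lay below control in every pair of groups, and the open point of WAT day 8 EGCG, the library with 61.0% of its reads on 5 genes, lies under the filled points of its group in every panel.

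Tfrc (ENSMUSG00000022797, chr16:32609006-32632880), the receptor that brings in transferrin, was higher with EGCG in 3 of the 4 comparisons. In WAT on day 4 the control libraries had 20.3, 18.7 and 17.6 FPKM (replicates 1, 2 and 3) and the EGCG libraries 35.2, 32.2 and 31.9. In WAT on day 8 the control libraries had 8.53, 10.2 and 8.37 FPKM and the EGCG libraries 19.5, 18.6 and 6.57, the last of which is 15.9 after median-ratio scaling. Apart from that library as deposited, the WAT groups did not overlap on either day. In BAT on day 8 the levels were 13.8, 14.2 and 11 FPKM in control and 22.2, 21.4 and 19.8 with EGCG, again without overlap. In BAT on day 4 they were 30.0, 31.1 and 29.2 FPKM in control and 28.2, 29.4 and 27.5 with EGCG. As deposited, these groups overlapped once replicate 3 is counted. After median-ratio scaling they had 27.5, 28.3 and 28.1 in control and 24.8, 25.8 and 24.7 with EGCG, without overlap. The log2 change was 0.76 ± 0.07 (SE; adjusted p = 5.21e-06) in WAT on day 4, 0.96 ± 0.07 (4.11e-07) in WAT on day 8 and 0.60 ± 0.07 (1.19e-05) in BAT on day 8. These are 1.73, 2.04 and 1.56 times control. In BAT on day 4 it was -0.09 (95% interval -0.25 to 0.07, adjusted p = 0.362). The 3 increases were 0.62, 0.77 and 0.42 with median-ratio scaling, so that they exceed the shift of all genes. The EGCG effect on Tfrc was smaller in BAT than in WAT (difference -0.84 ± 0.10 on day 4, adjusted p = 0.000154, and -0.36 ± 0.10 on day 8, 0.0173). The day 8 difference was lost without WAT control replicate 1 (-0.24, 0.0504), WAT EGCG replicate 1 (0.0605), BAT control replicate 2 (0.0540) or BAT EGCG replicate 2 (0.0600). Within BAT it was higher on day 8 than on day 4 by 0.69 ± 0.10 (0.000161).

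Without EGCG, Tfrc was lower on day 8 than on day 4, and the EGCG groups followed the same order. The control level on day 8 was 0.480 times that of day 4 in WAT (log2 change -0.99 ± 0.07, adjusted p = 3.67e-07) and 0.458 times in BAT (-1.07 ± 0.07, 1.03e-07). Ordered by group mean, the levels were 33.7 FPKM in WAT day 4 EGCG, 30.6 in BAT day 4 control, 28.8 in BAT day 4 EGCG, 21.8 in BAT day 8 EGCG, 19.5 in WAT day 4 control, 19.1 in WAT day 8 EGCG, 14 in BAT day 8 control and 9.36 in WAT day 8 control. Among neighbours in this order, WAT day 4 control and WAT day 8 EGCG overlapped in replicates 1 and 2, and BAT day 4 control and EGCG did not differ in the test. As deposited, WAT on day 8 with EGCG thus had about the Tfrc level that WAT control cells had on day 4. After median-ratio scaling the EGCG libraries had 17.6, 16.9 and 15.9 and those controls 20.8, 19.2 and 18.7, without overlap. This pair was not tested. The order above is of deposited values, and scaling put the mean of BAT day 8 EGCG (19.4 and 18.7 in replicates 1 and 2) below WAT day 4 control.

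Slc11a2 (ENSMUSG00000023030, chr15:100218329-100255503, minus strand), the divalent metal transporter, stayed within a narrow range of 9.71 to 16 FPKM over the 16 libraries of replicates 1 and 2. In WAT on day 4 the values were 14, 14.7 and 11.7 FPKM in control and 12.4, 12.1 and 13.3 with EGCG, a log2 change of -0.21 ± 0.07 (adjusted p = 0.0241) while replicate 3 moved the other way. The call was lost without control replicate 2 (adjusted p = 0.129), EGCG replicate 1 (0.0583) or EGCG replicate 2 (0.103). For WAT on day 8 they were 11.8, 9.71 and 10.0 FPKM in control and 13, 12.6 and 5.07 with EGCG (12.3 after scaling), a change of 0.24 ± 0.07 (0.00938) that was 0.05 (0.514) with median-ratio scaling. That call was also lost without control replicate 2 (0.0925) or EGCG replicate 1 (0.0577). In BAT the changes were -0.02 on day 4 (-0.17 to 0.13, adjusted p = 0.825) and -0.10 on day 8 (-0.25 to 0.05, 0.228), the latter -0.28 (0.00286) with median-ratio scaling. Gm5475, a gene on the opposite strand, overlaps Slc11a2, and whether the counting used strand is not given in the sources used here.

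Steap4 (ENSMUSG00000012428, chr5:7960472-7982213), a metalloreductase of the cell surface and endosomes, fell in all 4 comparisons and showed the steepest fall of any member on day 8. For BAT on day 8 the control libraries had 137, 142 and 131 FPKM and the EGCG libraries 6.15, 6.38 and 6.35. On day 8 in WAT the values were 104, 122 and 104 FPKM in control and 9.57, 10.7 and 3.14 with EGCG (7.60 after scaling the last). On day 4 in BAT they were 32.8, 36.0 and 36.7 FPKM in control and 6.09, 8.38 and 8.58 with EGCG. WAT cells on day 4 had 39.2, 39.3 and 41.9 FPKM against 26.6, 31.2 and 23.4. The groups did not overlap in any of the 4 comparisons. The control level was 22.3 times the EGCG level in BAT on day 8 (log2 change -4.27 ± 0.12, adjusted p = 5.63e-11), 11.2 times in WAT on day 8 (-3.35, 9.79e-10), 4.76 times in BAT on day 4 (-2.12, 8.33e-08) and 1.36 times in WAT on day 4 (-0.43, 0.00943). The smallest of these was lost without EGCG replicate 1 (adjusted p = 0.0893). In control cells Steap4 rose from day 4 to day 8, by 1.50 ± 0.12 in WAT (7.04e-07) and by 1.99 ± 0.12 in BAT (3.81e-08). With EGCG its mean went from 28.9 to 10.1 FPKM in WAT between these days. In BAT it went from 7.24 to 6.26 FPKM, and the EGCG libraries of the 2 days overlapped.

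Slc40a1 (ENSMUSG00000025993, chr1:45964915-45982439, minus strand), ferroportin, the exporter of iron from the cell, fell with EGCG in 1 setting. For WAT on day 4 the control libraries had 16.2, 15.1 and 14 FPKM and the EGCG libraries 4.19, 4.2 and 4.16, with no overlap. The log2 change was -1.68 ± 0.13 (adjusted p = 9.86e-07), with the control at 3.72 times the EGCG level. All other groups were low: 3.47 to 4.93 FPKM in WAT day 8 control, 3.88 and 4.78 in WAT day 8 EGCG (replicate 3 at 1.34 as deposited, 3.25 scaled), and 2.07 to 4.34 over the 4 BAT groups. The changes there were 0.04 in WAT on day 8 (95% interval -0.24 to 0.33, adjusted p = 0.784), 0.06 in BAT on day 4 (-0.23 to 0.35, 0.728) and 0.12 in BAT on day 8 (-0.16 to 0.41, 0.411). WAT day 4 control was also part of the largest other contrasts of this gene. It was 7.29 times BAT day 4 control (log2 change of BAT against WAT -2.40 ± 0.13, 1.36e-07), and 3.72 times WAT day 8 control (-1.69 ± 0.13, 5.45e-07). The EGCG effect in WAT differed between the days by 1.72 ± 0.19 (2.23e-05), and on day 4 between the depots by 1.74 ± 0.19 (5.61e-05). BAT control, a contrast without that group, was higher on day 8 than on day 4 by 0.48 ± 0.13 (0.00624), while replicate 3 as deposited moved the other way.

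Cp (ENSMUSG00000003617, chr3:19857054-19909145), the ferroxidase ceruloplasmin, moved much as Steap4 did. For BAT on day 8 its levels were 209, 207 and 183 FPKM in control and 18.6, 17.1 and 16.9 with EGCG. WAT cells on day 8 had 91.2, 126 and 105 FPKM in control and 15.8, 12.7 and 3.69 with EGCG (8.92 after scaling). On day 4 in BAT they were 74.3, 72.0 and 72.4 FPKM in control and 39.2, 48.6 and 41.5 with EGCG. WAT cells on day 4 had 34.6, 36.1 and 35.2 FPKM against 29.1, 24.2 and 22.4. No EGCG library reached its control libraries in any comparison. The log2 change was -3.47 ± 0.15 in BAT on day 8 (adjusted p = 1.41e-09), -2.83 ± 0.15 in WAT on day 8 (2.14e-08), -0.73 ± 0.15 in BAT on day 4 (0.0015) and -0.40 ± 0.15 in WAT on day 4 (0.038). The WAT day 4 call was lost without control replicate 1 (0.0904), control replicate 2 (0.134) or EGCG replicate 2 (0.233), and with no filter on low values (0.0908). Control levels of Cp rose from day 4 to day 8 by 1.57 ± 0.15 in WAT (2.63e-06) and 1.49 ± 0.15 in BAT (2.57e-06), and were higher in BAT than in WAT by 1.03 on day 4 (0.000135) and 0.95 on day 8 (0.000204). Hps3, on the opposite strand, overlaps Cp.

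Markers of adipocytes fell in the same comparisons as Steap4 and Cp. The 10 adipocyte markers (Adipoq, Pparg, Fabp4, Plin1, Lpl, Cidec, Cfd, Lep, Slc2a4 and Dgat2) were called lower with EGCG in all 4 comparisons, 10 of 10 each time. Their summed level in replicates 1 and 2 went from 3662-4029 to 1088-1142 FPKM in WAT on day 4 and from 6186-6982 to 633-697 in WAT on day 8. In BAT it went from 6326-7329 to 1487-1548 on day 4 and from 11181-11263 to 446-456 on day 8. The part of adipocyte content in the falls of Steap4, Cp and Aco1 was not tested. In bulk libraries, fewer cells of a type and less RNA per cell cannot be told apart.

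**Figure D2:**
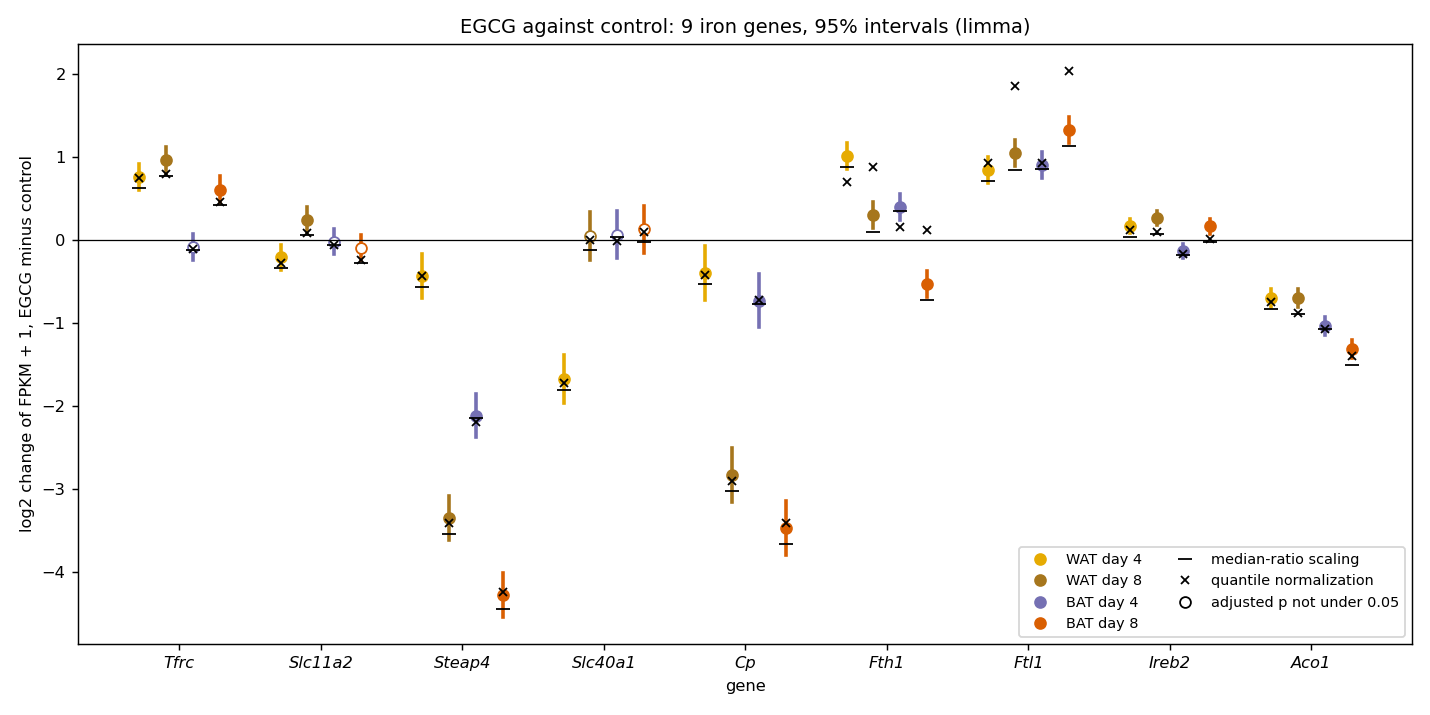
Log2 change of FPKM + 1 (EGCG minus control) for each member in the 4 comparisons, with 95% intervals from limma (n = 2 per group). Open circles did not pass an adjusted p of 0.05, dashes give the value after median-ratio scaling and crosses after quantile normalization. Steap4 and Cp fell most on day 8, Aco1 fell in all 4, Ftl1 rose in all 4, and the cross of Fth1 in BAT on day 8 lies above 0 (0.11) where the deposited values give -0.53.

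The ferritin subunits were among the most abundant mRNAs in the cells, and they did not move together. Fth1 (ENSMUSG00000024661, chr19:10057193-10059582) ranked between 2 and 15 among all genes by group mean, and Ftl1 (ENSMUSG00000050708, chr7:52713314-52715254, minus strand) between 2 and 22. AC151602.1, on the same strand, overlaps Ftl1, so strand cannot separate their reads. Ferritin copies whose symbol starts with Fth or Ftl (Fthl17, Ftl2 and Fth-ps2) held at most 16 reads in any library, so few reads were assigned to these. Copies under other names were not looked for, and how reads shared with other copies were treated is not given in the sources used here.

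Ftl1, the light subunit, was higher with EGCG throughout. In WAT its libraries had 1614, 1538 and 2466 FPKM in control and 3007, 2660.3 and 4507 with EGCG on day 4. On day 8 they had 1559, 1676 and 2734 FPKM in control and 3372, 3283 and 2089.9 (5058 after scaling) with EGCG. In BAT they had 1344, 1443 and 2269 FPKM in control and 2664, 2546 and 4024 with EGCG on day 4. On day 8 they had 1476, 1558 and 2349 FPKM in control and 3774, 3796 and 5827 with EGCG. Every EGCG library lay above its control within the same table, apart from WAT day 8 EGCG replicate 3 as deposited. The log2 change was 0.84 ± 0.07 in WAT on day 4 (adjusted p = 1.72e-06), 1.04 ± 0.07 in WAT on day 8 (1.72e-07), 0.90 ± 0.07 in BAT on day 4 (9.66e-07) and 1.32 ± 0.07 in BAT on day 8 (1.01e-08). These are 1.80, 2.06, 1.87 and 2.50 times control. With median-ratio scaling the changes were 0.70, 0.84, 0.86 and 1.13. Quantile normalization gave 0.93, 1.86, 0.92 and 2.03. In control cells the means of Ftl1 were 1394 to 1618 FPKM and no difference was called: day 8 differed from day 4 by 0.04 in WAT (adjusted p = 0.676) and 0.12 in BAT (0.144), and BAT from WAT by -0.18 on day 4 (0.0506) and -0.09 on day 8 (0.299). Other settings called some of them: with median-ratio scaling BAT was lower than WAT on day 4 (-0.34, 0.00178) and higher on day 8 than on day 4 (0.28, 0.00418), voom (0.0199) and a filter at FPKM 5 (0.0384) called the day 4 depot difference, and quantile normalization that of day 8 (-0.17, 0.0203).

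Fth1, the heavy subunit with the ferroxidase site, was called higher with EGCG on day 4 and in WAT on day 8 and lower in BAT on day 8, and several of these calls depended on the scaling. On day 4 in WAT it had 2497, 2436 and 3166 FPKM in control and 5252, 4708 and 5848 with EGCG, 2.02 times control (log2 change 1.01 ± 0.07, adjusted p = 3.94e-07). For BAT on day 4 it had 4809.9, 4608 and 5429.5 FPKM in control and 6053, 6299 and 7385 with EGCG, 1.31 times (0.39 ± 0.07, 0.000702). With quantile normalization the WAT change was 0.70 (0.000116) and the BAT change 0.15 (0.239). Both day 4 pairs of groups were without overlap. For WAT on day 8 the levels were 1816, 2041 and 2452 FPKM in control and 2375, 2362 and 1015 with EGCG (2458 after scaling), a change of 0.30 ± 0.07 (0.0029) that was 0.10 (0.267) with median-ratio scaling, 0.88 (1.32e-05) with quantile normalization and -0.12 in replicate 3 after scaling. On day 8 in BAT they were 2336, 2347 and 2750.2 FPKM in control and 1602, 1630.0 and 1972 with EGCG, a fall to 0.690 times control (-0.53 ± 0.07, 2.55e-05). That fall was 0.73 on the log2 scale with median-ratio scaling, while quantile normalization gave a change of 0.11 (adjusted p = 0.324). With no filter on low values, the calls in WAT on day 8 (0.135) and BAT on day 4 (0.0687) were lost. The EGCG effect on Fth1 was lower on day 8 than on day 4 by 0.71 ± 0.10 in WAT (0.000144) and 0.93 ± 0.10 in BAT (1.38e-05), but with quantile normalization neither was called (0.18 in WAT, 0.325, and -0.04 in BAT, 0.849).

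Ratios between members within a library do not change when a library is divided by 1 factor, as in FPKM or median-ratio scaling, though quantile normalization would change them. The ratio of Ftl1 to Fth1 in BAT on day 8 was 0.632, 0.664 and 0.854 in control and 2.36, 2.33 and 2.96 with EGCG. For WAT on day 8 it was 0.858, 0.821 and 1.12 in control and 1.42, 1.39 and 2.06 with EGCG. For BAT on day 4 the ratio was 0.279, 0.313 and 0.418 in control and 0.440, 0.404 and 0.545 with EGCG, so it was higher with EGCG in each of these 3 settings and in each replicate. On day 4 in WAT it was 0.647, 0.631 and 0.779 in control and 0.573, 0.565 and 0.771 with EGCG. In control cells the heavy subunit was thus the more abundant mRNA in all but 1 library, whereas with EGCG on day 8 the light subunit was the more abundant one in all 6 libraries.

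The level of Tfrc relative to that of Fth1 changed in opposite directions on the 2 days. In BAT there were 5.89, 6.07 and 3.98 FPKM of Tfrc per 1000 of Fth1 in day 8 control and 13.9, 13.1 and 10.1 with EGCG. WAT had 4.69, 4.99 and 3.41 in day 8 control and 8.22, 7.89 and 6.47 with EGCG. On day 4 it was lower with EGCG than in control, at 6.25, 6.76 and 5.37 against 4.66, 4.66 and 3.73 in BAT, and at 8.14, 7.67 and 5.56 against 6.70, 6.84 and 5.46 in WAT. Each replicate showed the same direction as its group.

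**Figure D3:**
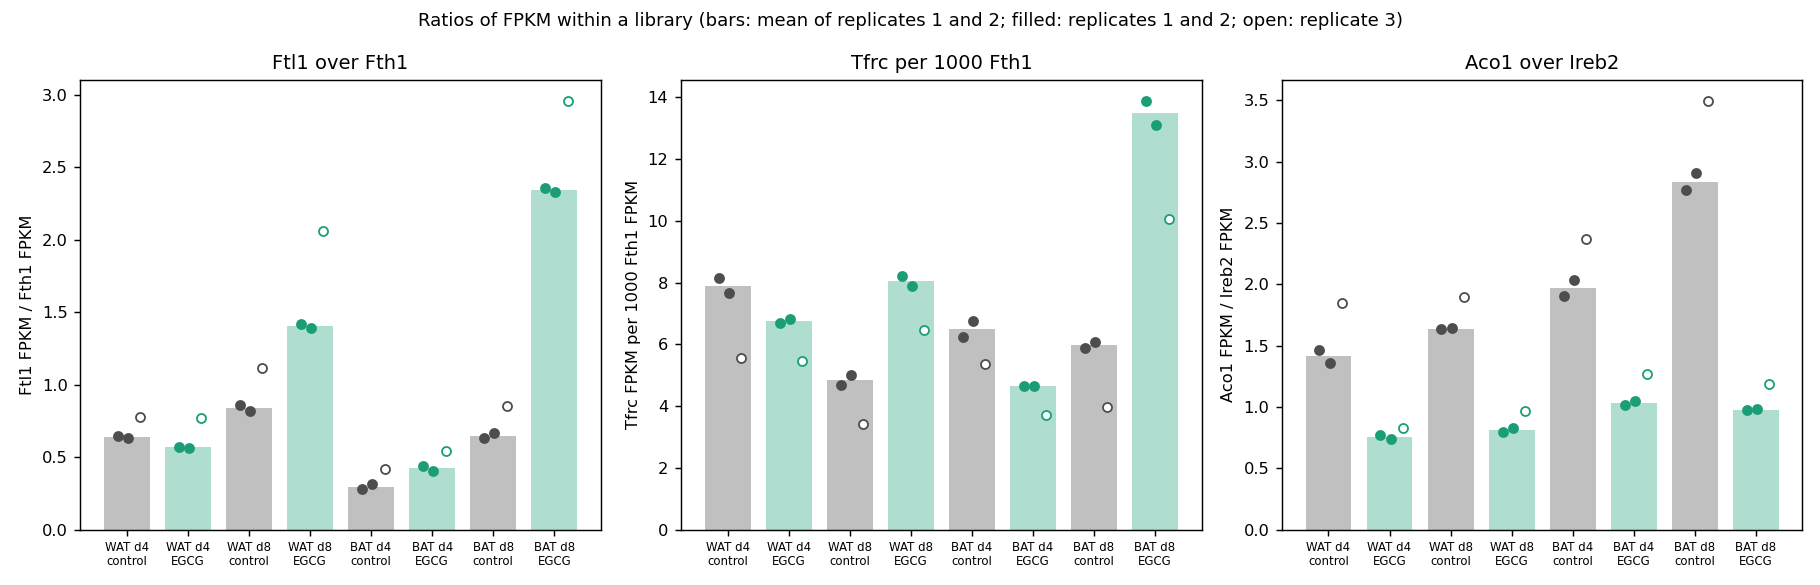
Ratios of FPKM within a library for the 8 groups: Ftl1 over Fth1, Tfrc per 1000 of Fth1 and Aco1 over Ireb2. Bars are means of replicates 1 and 2, filled points these replicates and open points replicate 3. The mean of Ftl1 over Fth1 went from 0.648 to 2.34 in BAT on day 8, and Aco1 over Ireb2 was lower with EGCG in each of the 4 settings.

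The regulatory proteins also parted. Aco1 (ENSMUSG00000028405, chr4:40090114-40146042), which is cytosolic aconitase when it carries an iron-sulfur cluster and binds RNA when it does not, fell in all 4 comparisons. In WAT it had 30.1, 28.9 and 31.7 FPKM in day 4 control and 17.9, 17.6 and 17 with EGCG. The day 8 libraries had 27.4, 27.7 and 26.4 FPKM in control and 16.3, 16.8 and 5.80 with EGCG (14 after scaling). In BAT it had 39.3, 43.4 and 42.0 FPKM in day 4 control and 19.1, 20.1 and 20.5 with EGCG. The day 8 libraries had 43.9, 45.6 and 44.6 FPKM in control and 17.5, 17.1 and 16.9 with EGCG. The groups did not overlap, and the 4 EGCG means lay close to each other (16.5 to 19.6 FPKM) while the control means ran from 27.6 to 44.8. The log2 change was -0.70 ± 0.05 in WAT on day 4 (adjusted p = 4.47e-07) and -0.70 ± 0.05 in WAT on day 8 (2.33e-07), and -1.04 ± 0.05 on day 4 (2.38e-08) and -1.32 ± 0.05 on day 8 (5.51e-10) in BAT. The fall was larger in BAT than in WAT by 0.34 ± 0.07 on day 4 (0.00455) and 0.62 ± 0.07 on day 8 (4.84e-05), and in control cells Aco1 was higher in BAT by 0.47 on day 4 (1.49e-05) and 0.68 on day 8 (5.43e-07).

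Ireb2 (ENSMUSG00000032293, chr9:54711562-54760341), the regulatory protein that is broken down when iron is plentiful, had the smallest ratio of highest to lowest level among the members, between 15.7 and 23.8 FPKM over the 16 libraries of replicates 1 and 2. In WAT its levels were 20.5, 21.2 and 17.2 FPKM in day 4 control and 23.1, 23.8 and 20.4 with EGCG. On day 8 they were 16.7, 16.9 and 13.9 FPKM in control and 20.5, 20.2 and 5.99 with EGCG (14.5 after scaling). In BAT they were 20.6, 21.3 and 17.7 FPKM in day 4 control and 18.7, 19.2 and 16.1 with EGCG. On day 8 they were 15.9, 15.7 and 12.8 FPKM in control and 18.0, 17.5 and 14.3 with EGCG. The changes were 0.16 ± 0.04 in WAT on day 4 (adjusted p = 0.00391), 0.26 ± 0.04 in WAT on day 8 (9.47e-05), -0.14 ± 0.04 in BAT on day 4 (0.0118) and 0.16 ± 0.04 in BAT on day 8 (0.00254). The increases are close to the shift of all genes: with median-ratio scaling the 4 changes were 0.03 (0.568), 0.07 (0.156), -0.18 and -0.02 (0.641), so that the increases were not called. The BAT day 4 call was lost without control replicate 2 (0.0874) or EGCG replicate 1 (0.081). The ratio of Aco1 to Ireb2 within a library went from 1.41 to 0.756 in WAT on day 4, from 1.64 to 0.813 in WAT on day 8, from 1.97 to 1.03 in BAT on day 4 and from 2.83 to 0.976 in BAT on day 8 (means of replicates 1 and 2).

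Set beside the known behaviour of iron shortage, the Tfrc mRNA was higher with EGCG in WAT on both days and in BAT on day 8 and not called in BAT on day 4. Slc11a2, whose mRNA can carry a hairpin in isoforms that these gene-level values do not separate, showed no change that held in every scaling and replicate. Ferritin mRNA was higher in most settings, and the protein, which the regulatory proteins act on, was not measured.

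In control cells, day 8 differed from day 4 in 7 of 9 members in WAT (61% of all genes) and in 7 of 9 in BAT (69.2%). Tfrc, Fth1 and Ireb2 fell and Steap4 and Cp rose with time in both depots, while Slc11a2 and Slc40a1 fell in WAT and rose in BAT. As deposited, replicate 3 had Slc40a1 in BAT at 3.03 FPKM on day 4 and 2.86 on day 8, against the direction of the other replicates. Fth1 fell by 1.01 on the log2 scale in BAT (adjusted p = 1.36e-07) and by 0.36 in WAT (0.000943), and Ireb2 fell by 0.39 (2.82e-06) and 0.30 (3.83e-05). BAT differed from WAT in 5 members on day 4 (55.8% of all genes) and in 6 on day 8 (53.6%). Of these, Tfrc, Cp, Fth1 and Aco1 were higher in BAT on both days, with Fth1 at 1.91 times the WAT level on day 4 (0.93 ± 0.07, 1.46e-06) and 1.21 times on day 8 (0.28, 0.00535). Slc11a2 and Steap4 were higher in BAT on day 8, by 0.53 (5.29e-05) and 0.31 (0.0483), and the call of Steap4 was lost without WAT control replicate 1 (adjusted p = 0.277), BAT control replicate 1 (0.106) or BAT control replicate 2 (0.157), and with median-ratio scaling (0.0967). With median-ratio scaling the share of called genes higher in BAT on day 4 went from 74.3% to 51.5%, and the members from 4 higher and 1 lower to 4 and 5. For day 8 against day 4 in BAT, that scaling moved the share of higher calls from 41.5% to 53.3%, and the members from 4 higher and 3 lower to 6 and 3.

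Whether the EGCG effect itself differed was tested as an interaction. Between depots, 6 members differed on day 4 (28.1% of all genes) and 7 on day 8 (39.2%), and between days, 5 differed in WAT (49.4%) and 7 in BAT (55.4%). With median-ratio scaling the share of positive differences among all calls moved from 42.7% to 61.5% between depots on day 4 and from 62.8% to 49.3% between days in BAT, while the members stayed at 1 positive and 5 negative and at 3 and 4. The EGCG, day and depot comparisons share control libraries, so they are not independent of each other. The day 8 depot count was 3 without WAT day 8 EGCG replicate 1, 3 without BAT day 8 EGCG replicate 2 and 4 without BAT day 8 control replicate 2.

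The wider iron pathway was followed in lists of genes, which were also chosen with earlier results of these data known. Of 14 tested genes of iron transport, 4 were higher and 4 lower with EGCG in WAT on day 4, 5 and 8 in WAT on day 8, 6 and 6 in BAT on day 4, and 4 and 8 in BAT on day 8, with medians of 0.00, -0.66, -0.15 and -0.62. Over all genes, 53.7%, 63.6%, 48.5% and 72.6% were called in these comparisons, with medians of 0.09, 0.17, 0.03 and 0.17, and the lists below are to be read against the same values. Heph, hephaestin, a membrane ferroxidase, went from 46.8 to 6.07 FPKM in WAT on day 4 (log2 change -2.76), from 42.2 to 5.45 in WAT on day 8 (-2.74) and from 10.5 to 4.00 in BAT on day 4 (-1.20). Scara5, a receptor for ferritin, went from 115 to 15.3 FPKM in WAT on day 8 (-2.77) and from 89.1 to 6.59 in BAT on day 8 (-3.57). Lcn2, which binds iron-loaded siderophores, went from 166 to 45.8 FPKM in BAT on day 4 (-1.84) and from 125 to 3.17 on day 8 (-4.92). Of the Steap4 family, Steap1 rose in all 4 comparisons, from 9.18 to 43.0 FPKM in WAT on day 4 (2.12) and from 4.15 to 11 in BAT on day 8 (1.23). Steap2 rose from 4.39 to 19.8 FPKM in WAT on day 4 (1.95) and from 6.80 to 15.3 in BAT on day 4 (1.07). Mcoln1, a lysosomal channel that can pass iron, rose from 17.4 to 34.2 FPKM in WAT on day 8 (0.94) and from 18.2 to 35.3 in BAT on day 8 (0.92).

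Trf, transferrin, cannot be given 1 level. It had 1.33 and 1.76 FPKM in WAT day 8 control in the table of replicates 1 and 2 but 37.8 in that of replicate 3, and 1.44 and 1.27 against 32.6 in BAT day 8 control. The annotation has 2 overlapping gene records of that name, of which the one with the lower identifier was used, and whether both tables were counted alike was not tested. In both tables Trf was lower with EGCG on day 8, at 0.0374 and 0.0293 FPKM with 0.280 in replicate 3 in WAT and at 0.0664 and 0.0368 with 1.04 in BAT.

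Among 5 tested genes of iron storage and sensing, 2 were higher and 3 lower in WAT on day 4, 2 and 2 on day 8, 1 and 4 in BAT on day 4, and 2 and 2 on day 8. Ncoa4, the receptor that delivers ferritin to lysosomes, was lower with EGCG in all 4, by 0.38 in WAT on day 4 (26.7 to 20.3 FPKM), 0.34 in WAT on day 8 (16 to 12.5), 0.78 in BAT on day 4 (32.3 to 18.4) and 0.14 in BAT on day 8 (15.8 to 14.3, adjusted p = 0.0364). Fbxl5, the ligase subunit that targets Ireb2 when iron is plentiful, rose in WAT on day 4 (11.1 to 16.4 FPKM, 0.53) and fell elsewhere, from 20.1 to 13.1 in WAT on day 8 (-0.57), from 16 to 13.8 in BAT on day 4 (-0.21, adjusted p = 0.0179) and from 17.9 to 10.9 in BAT on day 8 (-0.67). Bmp6, the signal by which liver vessels report iron, rose in all 4, from 2.72 to 8.98 FPKM in WAT on day 8 (1.42) and from 2.23 to 8.15 in BAT on day 4 (1.51). Pcbp1, an iron chaperone for ferritin, fell in WAT on day 4 (-0.33) and rose on day 8 in WAT (0.42) and BAT (0.50).

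Among 4 other tested transcripts known for such hairpins, Epas1, the hypoxia-inducible factor HIF-2α, rose from 34.4 to 72.9 FPKM in WAT on day 4 (1.06) and from 29.3 to 36.6 in BAT on day 4 (0.31), and fell from 43.6 to 11.7 in BAT on day 8 (-1.81). Cdc42bpa rose in all 4, by 0.23 to 0.72. The counts were 2 higher and 1 lower (1 and 1 with median-ratio scaling), 1 and 1, 2 and 1, and 1 and 2 in the order WAT day 4, WAT day 8, BAT day 4 and BAT day 8.

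Heme genes were led by Hmox1, heme oxygenase, which releases iron from heme and is induced by oxidative stress. It rose from 198 to 1118 FPKM in WAT on day 4 (log2 change 2.49), from 138 to 568 in WAT on day 8 (2.04), from 127 to 509 in BAT on day 4 (1.99) and from 161 to 467 in BAT on day 8 (1.54). Slc48a1, which carries heme out of lysosomes, rose in WAT on day 4 (21.0 to 54.8 FPKM), BAT on day 4 (26.9 to 49.2) and BAT on day 8 (44.4 to 64.3). Genes of heme synthesis that fell included Alas1, its first enzyme, from 88.6 to 22.7 FPKM in BAT on day 8 (-1.92) and from 41.1 to 23.4 in WAT on day 8 (-0.78). Another was Alad, from 13.2 to 6.45 FPKM in BAT on day 8 (-0.93). Of 16 tested genes, 6 were higher and 2 lower in WAT on day 4, 5 and 4 in WAT on day 8 (4 and 9 with median-ratio scaling), 3 and 7 in BAT on day 4, and 6 and 10 in BAT on day 8.

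Genes that build iron-sulfur clusters were more often lower than higher in BAT, with 4 of 27 higher and 13 lower on day 4 (median -0.24) and 7 higher and 18 lower on day 8 (median -0.36), against 27.9% higher and 20.6% lower, and 46.5% and 26.1%, of all genes. Isca1, an assembly factor, went from 87.7 to 35.6 FPKM (-1.28) and the ferredoxin Fdx1 from 13 to 5.17 (-1.19) in BAT on day 8. In WAT, 6 were higher and 6 lower on day 4 (4 and 10 with median-ratio scaling), and 12 and 5 on day 8 (8 and 13 with median-ratio scaling, the median going from 0.10 to -0.07). Slc25a37, mitoferrin, which brings iron into mitochondria, rose in all 4, from 14 to 27.4 FPKM in WAT on day 4 (0.92) and from 7.78 to 14.8 in BAT on day 8 (0.85). The other mitoferrin, Slc25a28, fell in WAT on day 8 from 18.5 to 10.2 FPKM (-0.81). The ferredoxin Fdx1l rose on day 8 from 16 to 28.6 in WAT (0.80) and from 16 to 32.7 in BAT (0.99).

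Targets of the hypoxia-inducible factors, whose prolyl hydroxylases need iron and which iron chelators are known to induce, differed in direction between the days. All 16 tested targets were higher with EGCG in WAT on day 4 (median log2 change 1.86) and 12 were higher and 0 lower in BAT on day 4 (median 0.52), against 34.4% and 27.9% of all genes. For WAT on day 8, 4 were higher and 3 lower (median -0.02, or 3 and 7 with median-ratio scaling). In BAT on day 8, 1 was higher and 13 lower (median -1.06). The targets also changed with time in control cells. From day 4 to day 8, 14 rose and 1 fell in WAT (median 0.99), and 15 rose and 1 fell in BAT (1.36). Over all genes, 61% in WAT and 69.2% in BAT were called there, with medians of -0.03 and -0.10. The day 8 EGCG comparisons are thus set against raised control levels. Ndufa4l2, a mitochondrial protein induced by HIF-1, went from 14.4 to 259 FPKM in WAT on day 4 (4.08) and from 31.4 to 106 in BAT on day 4 (1.76). Egln3, one of the hydroxylases, went from 1.77 to 14.4 FPKM in WAT on day 4 (2.47) but from 83.9 to 8.49 in BAT on day 8 (-3.17). Bnip3, a mitophagy receptor, went from 664 to 74.6 FPKM in BAT on day 8 (-3.14). Slc2a1, the glucose transporter GLUT1, was the 1 target higher in BAT on day 8 (41.2 to 67.0 FPKM, 0.69).

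**Figure D4:**
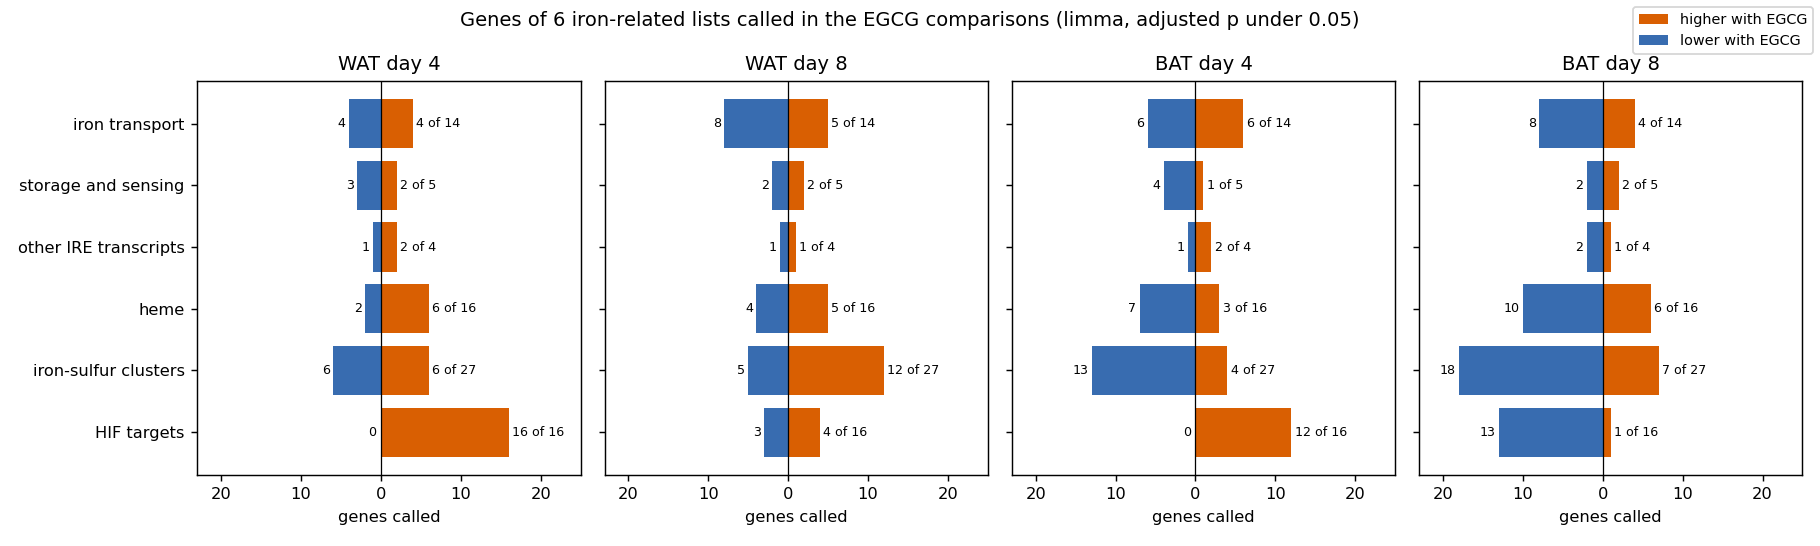
Number of genes called higher (right) or lower (left) with EGCG in each of the 6 iron-related lists, for the 4 comparisons; labels give the counts and the number tested. All 16 HIF targets were higher in WAT on day 4 and 13 of 16 were lower in BAT on day 8, and genes for iron-sulfur clusters were more often lower than higher in BAT.

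Markers of other cells also moved with EGCG. Macrophages, which handle much iron in fat, had 10 markers (Emr1, Cd68, Csf1r, Cd163, Mrc1, Lyz2, Ptprc, Itgam, Cd14 and Spic) whose summed level went from 70.0-74.8 to 186-191 FPKM in WAT on day 4 and from 157-166 to 349-389 in BAT on day 4. It went from 105-121 to 56.2-59.5 in WAT and 106-109 to 58.0-58.7 in BAT on day 8. In replicates 1 and 2, 6 of the 10 stayed under 1 FPKM in WAT day 4 control and 2 in WAT day 4 EGCG. In BAT on day 4 there were 3 such markers in either group, and on day 8 there were 3 in control and 6 with EGCG in both depots. Of 8 tested, 7 and 4 were higher on day 4 and 8 and 6 lower on day 8, in WAT and BAT, and Spic, the factor of iron-recycling macrophages, did not pass the filter on low values and was at 0 with EGCG on day 8. Slc40a1 is high in macrophages. In WAT on day 4 Slc40a1 was lower and the summed markers higher with EGCG, and a part of macrophages in the Slc40a1 level was not tested. Endothelial markers were summed at 11.1-21.7 FPKM in control and 29.0-38.8 with EGCG, and 4, 4, 5 and 5 of 5 tested were higher. Of 8 tested progenitor markers, 2 were higher and 4 lower in WAT on day 4, 1 and 6 on day 8, 2 and 2 in BAT on day 4, and 1 and 5 on day 8. Of 4 tested skeletal muscle markers, 3 were higher in WAT on day 4, 1 was higher and 1 lower in WAT on day 8, and 2 were lower in BAT on day 8. Erythroid cells, the main users of iron in the body, were at or near 0: none of 9 markers reached the filter, and their sum was at most 1.32 FPKM in replicates 1 and 2, although it was 16.3 in BAT day 8 EGCG replicate 3.

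Across the 8 group means, the genes whose pattern was most like each member's were, among 8696 genes, Zfp692 and Hist1h4k for Tfrc (Pearson r of 0.988 and 0.987) and Acvr1b and Gprc5b for Fth1 (0.983 and 0.977). They were Gm10116 and 2310028H24Rik for Ftl1 (0.995 and 0.993), 1300001I01Rik and Qdpr for Aco1 (0.994 and 0.993), Cbr2 for Cp (0.985, after the mitochondrial ribosomal RNA mt-Rnr1 at 0.987) and Lgals4 and Abca8a for Steap4 (0.972 and 0.964). Sqle and Mafg were most like Ireb2 (0.974 and 0.968), Mpv17l2 and Rfwd2 like Slc11a2 (0.956 and 0.928), and Tatdn2 and Ccdc94 like Slc40a1 (0.923 and 0.912). Among the members, r was 0.83 between Steap4 and Cp, 0.75 between Tfrc and Fth1, 0.75 between Tfrc and Ireb2, 0.86 between Cp and Aco1, -0.93 between Ftl1 and Aco1 and -0.07 between Fth1 and Ftl1. The 8 points share libraries and scaling, and these values are descriptions.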

How the data were processed

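Total RNA was sequenced in 24 libraries, and the labels gave each library its depot, day, treatment and replicate number. The authors deposited FPKM per gene in 2 tables, one of replicates 1 and 2 and one of replicate 3, each scaled to its libraries' reads on genes. The submitters' processing notes name FastQC 0.11.9, HISAT2 2.2.0, HTSeq 0.11 and build mm9, and the strand setting of the counting is not given in the sources used here. Every value was a whole number of reads within 0.01 once multiplied out by gene length and depth, which gave the reads per library, and precision from reads covers counting error only.

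Gene names came from GENCODE vM1 by Ensembl identifier. Genes with an FPKM of at least 1 in 2 of the 16 libraries of replicates 1 and 2 were tested (14095 of 37310) with limma 3.58.1 in R 4.3.3 on log2(FPKM + 1), with 8 group means and a trended prior. P-values were two-sided and adjusted by Benjamini-Hochberg within each comparison at 0.05. The pseudocount of 1 makes changes of low genes look smaller than they are, and fold values are ratios of mean FPKM. Replicate 3 gave values only. The script was tested on simulated data first.

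The members and lists were chosen with earlier results of these data known. All members were named. From each other list the text draws on the 2 highest and 2 lowest called genes per EGCG comparison with a mean FPKM of at least 5 in the higher group, and on Hmox1, Trf, Ncoa4 and Fbxl5 in any case. Some genes that this rule names are not reported here. The genes most alike were the 2 with the highest correlation over group means. Same-numbered replicates did not deviate together (28 pairs of groups, r of -0.079 to 0.081). Alternatives were another pseudocount, other filters, median-ratio scaling, quantile normalization, voom on recovered reads, both tables with the table as a term, a replicate block and each library left out.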

Additional observations from a re-analysis of the deposited data

Results flagged for a closer look

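The EGCG effect on a member differed between depots or between days in interaction tests of limma (log2 scale, adjusted p under 0.05, n = 2 per group). Between depots this held for 6 and 7 of 9 members on day 4 and 8, against 28.1% and 39.2% of all genes. Between days it held for 5 and 7 in WAT and BAT, against 49.4% and 55.4%. Positive values mean a higher change in BAT than in WAT, or on day 8 than on day 4.

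On the uptake side, the Tfrc effect differed between depots by -0.84 ± 0.10 (SE) on day 4 and -0.36 ± 0.10 on day 8, and between days in BAT by 0.69 ± 0.10. For Slc11a2 the differences were 0.45 ± 0.10 between days in WAT and -0.34 ± 0.10 between depots on day 8. The day 8 depot difference of Tfrc was lost without any 1 of 4 libraries (adjusted p of 0.0504 to 0.0605), and that of Slc11a2 without WAT EGCG replicate 1 (0.0575) or BAT EGCG replicate 2 (0.0630). For Steap4 they were -2.92 ± 0.17 between days in WAT, -2.16 ± 0.17 between days in BAT, -1.68 ± 0.17 between depots on day 4 and -0.92 ± 0.17 on day 8.

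On the export side, the Slc40a1 effect differed between days in WAT by 1.72 ± 0.19 and between depots on day 4 by 1.74 ± 0.19. For Cp the differences were -2.43 ± 0.21 between days in WAT, -2.74 ± 0.21 between days in BAT and -0.64 ± 0.21 between depots on day 8. The last was lost without any 1 of 5 libraries, being -0.41 (adjusted p = 0.103) without WAT control replicate 1, -0.49 (0.116) without WAT EGCG replicate 1 and 0.0642 to 0.0918 in adjusted p without either BAT control or BAT EGCG replicate 2. It was also lost with quantile normalization (0.0531) and with no filter (0.0745).

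For the ferritins, the Fth1 effect differed between days by -0.71 ± 0.10 in WAT and -0.93 ± 0.10 in BAT, and between depots by -0.62 ± 0.10 on day 4 and -0.83 ± 0.10 on day 8. With quantile normalization neither day difference was called (0.18 in WAT, and -0.04 in BAT with adjusted p = 0.849). The Ftl1 effect differed between days in BAT by 0.42 ± 0.10 and between depots on day 8 by 0.28 ± 0.10 (adjusted p = 0.0459). That depot difference was lost without any 1 of 7 libraries (adjusted p of 0.0518 to 0.129), with a pseudocount of 0.1 (0.0576), with no filter (0.317) and with quantile normalization (0.17, 0.104).

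For the regulatory proteins, the Ireb2 effect differed between depots on day 4 by -0.30 ± 0.05 and between days in BAT by 0.30 ± 0.05. The Aco1 effect differed between depots by -0.34 ± 0.07 on day 4 and -0.62 ± 0.07 on day 8, and between days in BAT by -0.28 ± 0.07.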

How the results depend on the processing

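Of 1656 alternative values of the 108 member changes, 1510 kept direction and side of the threshold. With both tables as deposited and the table as a term, members called were 5 for EGCG in WAT on day 4, 4 in WAT on day 8, 4 for day 8 against day 4 in WAT and 4 in BAT, 2 for BAT against WAT on day 8, 2 and 0 for the depot difference on day 4 and 8, and 3 for the day difference in BAT. In the same order, 7567, 8962, 8591, 9751, 7555, 3959, 5520 and 7803 of 14095 genes were called with replicates 1 and 2 alone. The fit with both tables called 3081, 3750, 4107, 5606, 2852, 627, 2128 and 2332, so calls fell over all genes as well. That fit turned the WAT day 8 EGCG changes of Slc11a2 (-0.13), Fth1 (-0.22) and Ireb2 (-0.19), the day 8 depot differences of Tfrc (0.13) and Slc11a2 (0.048) and the WAT day difference of Slc11a2 (-0.046). Without WAT day 8 EGCG replicate 3, a fit chosen after seeing the data, 102 of its 108 values were as in the tested libraries, 5 gained and 1 lost a call. Median-ratio scaling, with or without the second table, called 5 members for EGCG in WAT on day 8 and 9 for BAT against WAT on day 4. Of all 14095 genes it called 7975 and 6753 there, and 8861 and 7764 with both tables. It turned Ireb2 for EGCG in BAT on day 8 (-0.022, and -0.039 with both tables) and for BAT against WAT on day 4 (-0.15 and -0.13). Quantile normalization turned Fth1 for EGCG in BAT on day 8 (0.11) and its day difference in WAT (0.18). Apart from the second table, the cause was not tested.

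With single libraries left out, members called were 7 to 8 for EGCG in WAT on day 4 and on day 8, 5 to 6 and 7 in BAT, 7 and 7 to 8 for the days in WAT and BAT, 5 and 5 to 7 for the depots on day 4 and 8, 6 and 3 to 6 for the depot differences, and 5 to 6 and 7 for the day differences. A lone library left in a group was assumed to vary like the other groups. Calls over all genes in those fits are not given here, so the member counts have no share beside them. With the replicate block, 107 values were as before and Ftl1 lost its day 8 depot difference (0.28, adjusted p = 0.0617). The voom fit on recovered reads called 7662, 8963, 7001 and 10238 genes in the EGCG comparisons of WAT on day 4 and 8 and BAT on day 4 and 8.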
